A study of Mus musculus with 21 samples.

Results

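The genes described here encode the machinery of V(D)J recombination: the recombinase proteins RAG1 and RAG2, terminal deoxynucleotidyl transferase (Dntt), and the factors of classical non-homologous end joining, Lig4, Xrcc4, Nhej1, Dclre1c, Prkdc, Xrcc5 and Xrcc6. They were taken by symbol from the gene tables of the study, and all 10 were present among 24421 symbols. Poly(A) RNA was sequenced from primary B cell precursors of the bone marrow of 53BP1-/- C57BL/6 mice, grown with 10 ng/ml interleukin-7 (IL-7). The cells were transduced with the retroviral vector MIGR1 alone (empty vector, EV), with MIGR1 carrying human BCR-ABL1, or with MIGR1 carrying mouse C-MYC, and were harvested 7 to 9 days after transduction with dead cells removed. Each of the 3 conditions had 2 libraries. All 6 libraries share the 53BP1 deletion and the IL-7 culture, so no comparison here bears on either. The age of the mice is not given in the sources used here. The labels do not say whether the libraries of a condition came from separate mice, so p-values measure the spread between the libraries, which may in part be technical.

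Developing B cells assemble their immunoglobulin genes by cutting and joining gene segments. The RAG1 and RAG2 proteins form the recombinase that cuts DNA at recombination signals, and Dntt adds bases to the opened ends without a template. The heterodimer of Ku70 (Xrcc6) and Ku80 (Xrcc5) binds broken ends and recruits the kinase DNA-PKcs (Prkdc), the nuclease Artemis (Dclre1c) opens the hairpins that RAG leaves, and DNA ligase IV (Lig4), with its partners Xrcc4 and XLF (Nhej1), seals the ends. The end joining factors act in dividing and resting cells of most tissues, whereas the Rag genes and Dntt are largely confined to developing lymphocytes. IL-7 receptor signaling is known to restrain Rag transcription in B cell precursors.

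The libraries held between 20687092 and 24095955 counts. CPM values are counts scaled to a common library total after TMM normalization. A gene was called changed when its p from edgeR's quasi-likelihood test, adjusted by the Benjamini-Hochberg method over the 12786 genes that passed a filter on low counts, was below 0.05. All 10 members passed that filter. Myc was called higher in C-MYC than in EV by 9.36-fold and in BCR-ABL1 by 2.18-fold, and its counts cannot separate vector from endogenous transcripts. All 9 B precursor markers (Cd79a, Cd79b and others) were detected in every library. Their summed level was between 5373 and 6084 CPM in EV, between 5489 and 6162 in BCR-ABL1 cells, and between 3123 and 3761 in C-MYC.

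Transcripts of other cell types were also present and were unequal between conditions. The 8 myeloid markers tested were all lower in both oncogene conditions than in EV, and their summed level was between 1107 and 1257 CPM in EV, between 139 and 157 in BCR-ABL1 cells, and between 190 and 327 in C-MYC. Of the 7 T cell and thymocyte markers tested, 6 were lower in BCR-ABL1 than in EV and all 7 were lower in C-MYC than in EV. The whole T cell list summed to between 191 and 247 CPM in EV, between 117 and 132 in BCR-ABL1 cells, and between 55.8 and 59.5 in C-MYC. Much of that sum was Lck, a SRC family kinase. Without Lck, in a sum chosen after its values were seen, the list reached 129.9 and 97.9 CPM in EV, 7.82 and 8.39 in BCR-ABL1 cells, and 3.36 and 6.74 in C-MYC. Ptcra, the pre-T cell receptor alpha chain, had a count of 0 in 5 of the 6 libraries. Of 7 erythroid markers, 5 were at 0 in every library. Thymocytes also transcribe the Rag genes and Dntt, and the part of these other cells in the differences from EV described below was not tested. Fewer cells of a type and less RNA per cell cannot be told apart in such bulk samples.

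**Figure D1:**
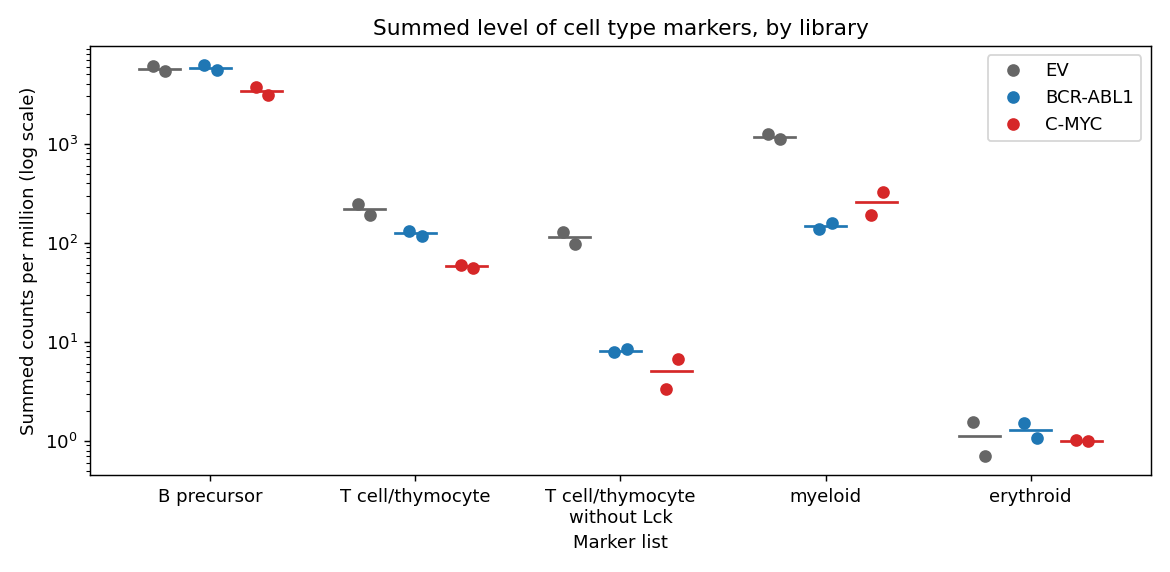
Summed CPM (log scale) of each cell type marker list in the 6 libraries; points are libraries and lines are means of 2 libraries. The EV libraries lie above those of both oncogenes for the myeloid list and for the T cell list with and without Lck, whereas the B precursor list is lowest in C-MYC.

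The Rag genes showed the largest differences among the members in both comparisons with C-MYC cells. Rag1 reached 71.1 and 58.9 CPM in the EV libraries, 37.3 and 38.9 CPM in BCR-ABL1 cells, and 5.98 and 8.22 CPM in C-MYC. The 3 conditions did not overlap, with EV highest and C-MYC lowest. Rag2 was measured at 14.0 and 11.2 CPM in EV, at 13.1 and 11.3 CPM in BCR-ABL1, and at 3.22 and 3.95 CPM in C-MYC. Here EV and BCR-ABL1 overlapped, and both lay above C-MYC.

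The Rag genes lie next to each other on mouse chromosome 2 and are transcribed toward each other, with 5752 bases between the ends of the annotated genes (GRCm38: Rag2 at chr2:101624718-101632529 on the plus strand, Rag1 at chr2:101638282-101649501 on the minus strand). The 250 bases upstream of their RefSeq start sites (GRCm38.p6) are shown because both neighbors fell in C-MYC, as described below. Capitals mark CAGGTG, the E-box that E proteins such as E2A bind.
Rag1, chr2:101649533-101649782, minus strand: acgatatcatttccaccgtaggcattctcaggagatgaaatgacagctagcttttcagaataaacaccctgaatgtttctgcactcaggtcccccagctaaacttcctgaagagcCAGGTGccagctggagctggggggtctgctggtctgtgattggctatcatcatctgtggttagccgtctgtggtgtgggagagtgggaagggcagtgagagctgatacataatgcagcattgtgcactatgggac
Rag2, chr2:101624462-101624711, plus strand: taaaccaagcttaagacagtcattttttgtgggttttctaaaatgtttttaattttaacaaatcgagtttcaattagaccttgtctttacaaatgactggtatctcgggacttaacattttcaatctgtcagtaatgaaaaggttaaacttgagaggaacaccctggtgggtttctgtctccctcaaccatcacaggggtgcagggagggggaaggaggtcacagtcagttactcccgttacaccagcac
The Rag1 window holds 1 CAGGTG, 135 to 130 bases upstream of the start, and the Rag2 window holds none on either strand. Of 32851 promoter windows of this length, 17.2% hold CAGGTG. None of the other motifs searched, on both strands, was found in either window: the MYC E-box CACGTG (6.02% of all windows), the forkhead motif GTAAACA (3.17%), the TATA box TATAAA (12.4%) and the GC box GGGCGG (32.7%). A match of letters is a description and not a binding site.

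In C-MYC, both Rag genes fell relative to EV. Rag1 was 9.14-fold lower (log2 fold change -3.19 ± 0.19 SE, n = 2 and 2, adjusted p = 0.000162 by edgeR), and it ranked 430 from the lowest log2 fold change of 12786 genes. Rag2 was 3.50-fold lower (log2 fold change -1.81 ± 0.23, adjusted p = 0.000857). Both remained called under all 14 alternative settings, with log2 fold changes between -3.44 and -2.37 for Rag1 and between -1.96 and -1.08 for Rag2.

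In BCR-ABL1, Rag1 fell by less, and no change of Rag2 was detected. Rag1 was 1.70-fold lower than in EV (log2 fold change -0.77 ± 0.17, adjusted p = 0.0210). The log2 fold change of Rag2 was -0.04 with a 95% interval from -0.53 to 0.45 (adjusted p = 0.916), and changes within that interval were not excluded here. Leaving out either BCR-ABL1 library ended the call of Rag1 (adjusted p = 0.153 without replicate 1 and 0.135 without replicate 2), as did limma on FPKM with a pseudocount of 0.1 (adjusted p = 0.0664) or with no filter (0.0703). Without a BCR-ABL1 library, its log2 fold change lay between -0.80 and -0.73.

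Compared directly, BCR-ABL1 cells carried 5.36-fold more Rag1 transcript than C-MYC cells (log2 difference 2.42 ± 0.19, adjusted p = 0.000521) and 3.39-fold more Rag2 (1.76 ± 0.23, adjusted p = 0.00258). Both calls held under all 14 alternatives. The T cell list summed to 132 and 117 CPM in the BCR-ABL1 libraries and to 59.5 and 55.8 CPM in C-MYC. Without Lck, the sums were 7.82 and 8.39 CPM against 3.36 and 6.74 CPM. The myeloid list summed to 139 and 157 CPM against 190 and 327 CPM. The part of these other cells in the Rag differences between the oncogenes was not tested.

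The ratio of Rag1 to Rag2 counts within a library, which needs no scaling between libraries and was chosen after the counts were seen, was 5.08 and 5.28 in EV, 2.85 and 3.44 in BCR-ABL1 cells, and 1.86 and 2.08 in C-MYC. The 3 conditions did not overlap. With 2 libraries a side, an exact permutation test cannot go below a 2-sided p of 0.333, and no other test of the ratios was run. A further gene, B230118H07Rik (Iftap), has annotated exons that overlap those of Rag1 on the same strand and those of Rag2 on the opposite strand. Whether the counting used strand is not given in the sources used here. B230118H07Rik averaged 2.51 CPM in EV, 3.17 in BCR-ABL1 cells and 3.31 in C-MYC and was not called in any comparison.

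**Figure D2:**
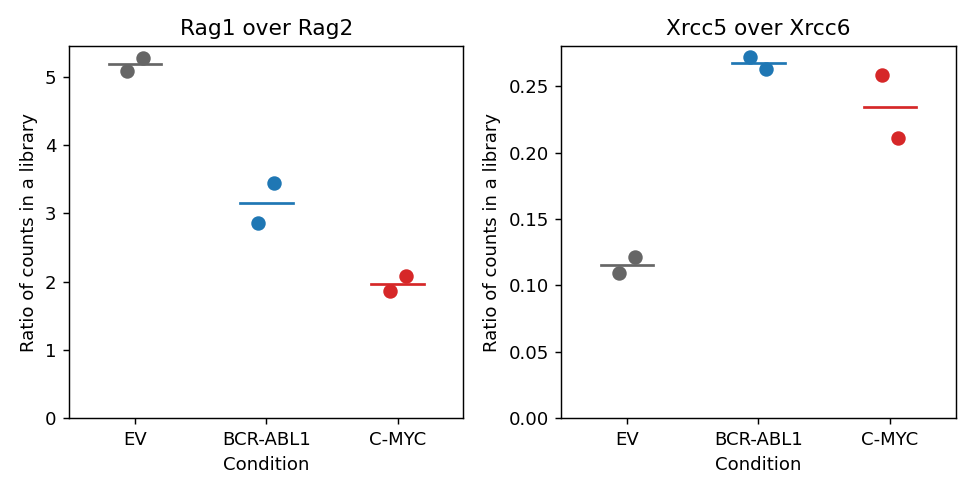
Ratio of the counts of Rag1 to Rag2 (left) and of Xrcc5 to Xrcc6 (right) within each library; points are libraries and lines are means of 2 libraries. The Rag1 to Rag2 ratio is highest in EV, whereas the Xrcc5 to Xrcc6 ratio is lowest in EV.

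Dntt, the template-independent polymerase, did not follow the Rag genes. It reached 382 and 439.6 CPM in EV, 529 and 535 CPM in BCR-ABL1 cells, and 412 and 418 CPM in C-MYC. Both C-MYC libraries lay between the EV libraries, and both BCR-ABL1 libraries lay above them. Dntt rose 1.29-fold in BCR-ABL1 relative to EV (log2 fold change 0.37 ± 0.10, adjusted p = 0.0427) and was 1.28-fold higher in BCR-ABL1 than in C-MYC (0.36 ± 0.10, adjusted p = 0.0390). Between C-MYC and EV its log2 fold change was 0.01 with a 95% interval from -0.22 to 0.25 (adjusted p = 0.922). The calls of Dntt were close to the threshold: the rise over EV was called under 5 of 14 alternatives and the difference from C-MYC under 9 of 14. The counts of Dntt were 5.38 and 7.46 times those of Rag1 in EV, 14.2 and 13.8 times in BCR-ABL1 cells, and 68.9 and 50.9 times in C-MYC.

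The subunits of Ku, which form a heterodimer, moved in opposite directions in BCR-ABL1 relative to EV. Xrcc5 (Ku80) was measured at 32.7 and 38.5 CPM in EV, at 58.7 and 58.4 CPM in BCR-ABL1, and at 69.7 and 61.9 CPM in C-MYC. Both oncogene conditions lay above EV. Xrcc5 rose 1.64-fold in BCR-ABL1 (log2 fold change 0.72 ± 0.13, adjusted p = 0.0111) and 1.85-fold in C-MYC (0.88 ± 0.14, adjusted p = 0.00187), and was not called between the oncogenes (log2 difference -0.17, 95% interval -0.48 to 0.14). The rise in C-MYC was called under all 14 alternatives and that in BCR-ABL1 under 12 of 14, failing without either BCR-ABL1 library (adjusted p = 0.0845 and 0.0870).

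Xrcc6 (Ku70) reached 299 and 317 CPM in EV, 216 and 222 CPM in BCR-ABL1 cells, and 269.8 and 293 CPM in C-MYC. BCR-ABL1 was lowest and overlapped neither other condition. Xrcc6 fell 1.41-fold in BCR-ABL1 relative to EV (log2 fold change -0.49 ± 0.10, adjusted p = 0.0136) and was 1.29-fold lower than in C-MYC (-0.36 ± 0.10, adjusted p = 0.0338). The fall from EV was not called without either BCR-ABL1 library (adjusted p = 0.141 and 0.115). The difference from C-MYC was lost without either BCR-ABL1 library and without either C-MYC library (adjusted p between 0.0755 and 0.258), and under all 3 limma settings (between 0.0811 and 0.0961). In C-MYC against EV, its log2 fold change was -0.13 (95% interval -0.36 to 0.10, adjusted p = 0.319).

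Within a library, the counts of Xrcc5 were 0.110 and 0.121 times those of Xrcc6 in EV, 0.272 and 0.263 times in BCR-ABL1 cells, and 0.258 and 0.211 times in C-MYC. Both oncogene conditions lay above EV and did not overlap each other. This ratio was also chosen after the counts were seen. Xrcc6 shares annotated exon bases with Desi1 on the opposite strand, and Desi1 was not called in any comparison.

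The windows upstream of the Ku genes are shown because the subunits moved apart. Capitals mark CACGTG, the E-box that MYC binds, in Xrcc5 and the GC box GGGCGG in Xrcc6.
Xrcc5, chr1:72307171-72307420, plus strand: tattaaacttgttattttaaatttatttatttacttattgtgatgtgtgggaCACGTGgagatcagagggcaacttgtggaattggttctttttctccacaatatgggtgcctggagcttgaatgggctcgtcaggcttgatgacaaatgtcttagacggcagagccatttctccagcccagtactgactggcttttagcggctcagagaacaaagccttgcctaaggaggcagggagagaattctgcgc
Xrcc6, chr15:82016119-82016368, plus strand: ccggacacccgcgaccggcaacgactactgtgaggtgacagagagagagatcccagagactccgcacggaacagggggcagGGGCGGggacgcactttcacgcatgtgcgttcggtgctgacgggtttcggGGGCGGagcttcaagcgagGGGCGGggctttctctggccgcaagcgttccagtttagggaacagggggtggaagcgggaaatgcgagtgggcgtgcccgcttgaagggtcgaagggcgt
The Xrcc5 window holds 1 CACGTG, 198 to 193 bases upstream of the start, and is the only one of the 10 start sites listed for 9 members that does; no window was listed for Prkdc. The Xrcc6 window holds 3 GC boxes and no E-box of either kind. It lies inside the annotated gene (chr15:81987835-82040085), whose start is further upstream. A GC box was found in 5 of the 10 windows, namely in those of Xrcc4, Nhej1, Dclre1c, Xrcc6 and the more downstream start of Lig4. Of all promoter windows of this length, 6.02% hold CACGTG and 32.7% hold GGGCGG.

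Among the kinase and nuclease that act on the ends, Dclre1c changed and Prkdc was not called. Dclre1c (Artemis) was measured at 29.8 and 22.8 CPM in EV, at 21.05 and 17.1 CPM in BCR-ABL1, and at 13.3 and 15.6 CPM in C-MYC. The conditions followed the order of Rag1 without overlap. Dclre1c fell 1.82-fold in C-MYC relative to EV (log2 fold change -0.86 ± 0.20, adjusted p = 0.00976), a call that was lost without C-MYC replicate 1 (adjusted p = 0.0776). Its log2 fold change in BCR-ABL1 was -0.46 (95% interval -0.91 to -0.01, adjusted p = 0.149). Suv39h2, a histone methyltransferase gene, shares annotated exon bases with Dclre1c on the opposite strand and was called higher in C-MYC than in EV (log2 fold change 0.63, adjusted p = 0.0176), the direction opposite to that of Dclre1c. Prkdc (DNA-PKcs) had 30.0 and 38.2 CPM in EV, 44.9 and 42.0 CPM in BCR-ABL1 cells, and 29.4 and 50.1 CPM in C-MYC. The C-MYC libraries spanned those of both other conditions.

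No member of the ligation complex was called in the fit without a replicate term. Lig4 was measured at 56.8 and 86.0 CPM in EV, at 45.9 and 53.8 CPM in BCR-ABL1, and at 46.4 and 54.6 CPM in C-MYC. Both EV libraries lay above all others, but they were far apart. The log2 fold change of Lig4 was -0.52 in BCR-ABL1 (adjusted p = 0.131) and -0.50 in C-MYC (adjusted p = 0.0836) relative to EV. Without EV replicate 1 it was called in both (log2 fold changes -0.78 and -0.77, adjusted p = 0.00911 and 0.00444). With the replicate number as a block it was also called in both (log2 fold changes -0.50 and -0.48, adjusted p = 0.0240 and 0.0138). Xrcc4 lay between 8.73 and 11.3 CPM and Nhej1 between 1.91 and 2.56 CPM over the 6 libraries. Tmem167, which shares annotated exon bases with Xrcc4 on the opposite strand, was not called in any comparison. Nhej1 had 44 to 60 counts per library. Its 95% intervals of the log2 fold change reached from -0.90 to 0.43 in BCR-ABL1 and from -0.63 to 0.69 in C-MYC. Changes within these bounds were not excluded.

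**Figure D3:**
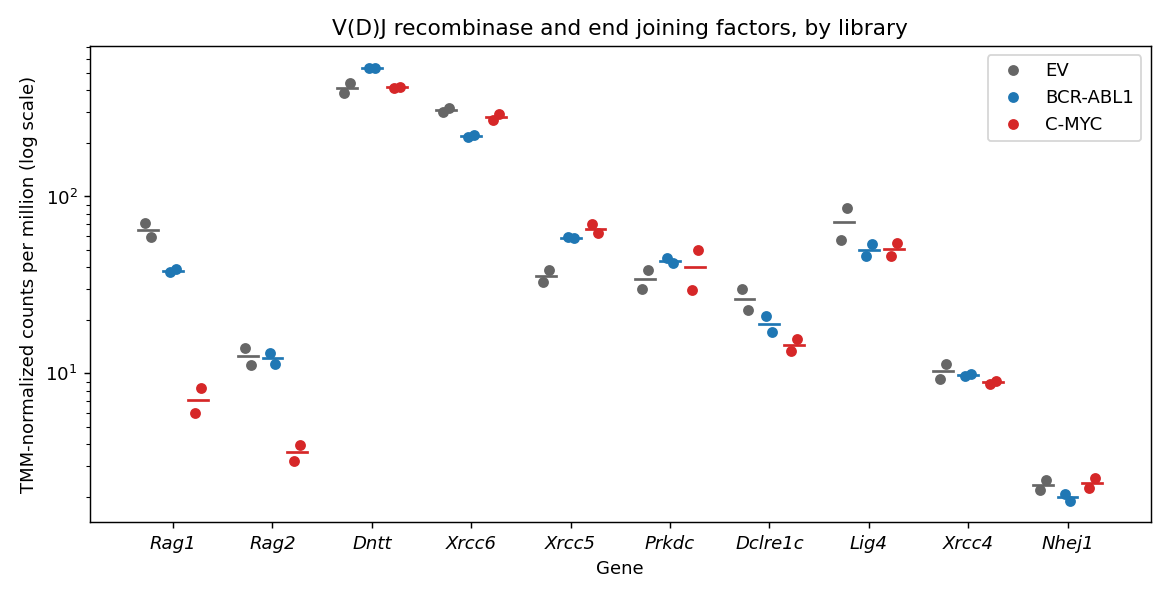
CPM (log scale) of the 10 genes in each library; points are libraries and lines are means of 2 libraries. Rag1 and Rag2 are lowest in C-MYC, Dntt is highest in BCR-ABL1, and Xrcc5 is lowest in EV.

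Counted over the 10 members, 2 rose (Dntt and Xrcc5) and 2 fell (Rag1 and Xrcc6) in BCR-ABL1 relative to EV, where 5.08% of all genes tested were called higher and 12.0% lower. In C-MYC relative to EV, 1 rose (Xrcc5) and 3 fell (Rag1, Rag2 and Dclre1c), beside 18.6% of all genes called higher and 24.5% lower. Between the oncogenes, 3 were higher in BCR-ABL1 (Rag1, Rag2 and Dntt) and 1 was lower (Xrcc6), beside 11.9% and 11.5% of all genes. The median log2 fold change of the 10 members was -0.16, -0.17 and 0.13 in these comparisons, and that of all genes tested was 0.00, -0.08 and 0.00. The members thus had no common direction. The comparisons with EV share the EV libraries. Without BCR-ABL1 replicate 1, and likewise without replicate 2, 0 of the 10 members were called between BCR-ABL1 and EV; of all genes tested in these fits, 5.39% and 5.02% were called in either direction.

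**Figure D4:**
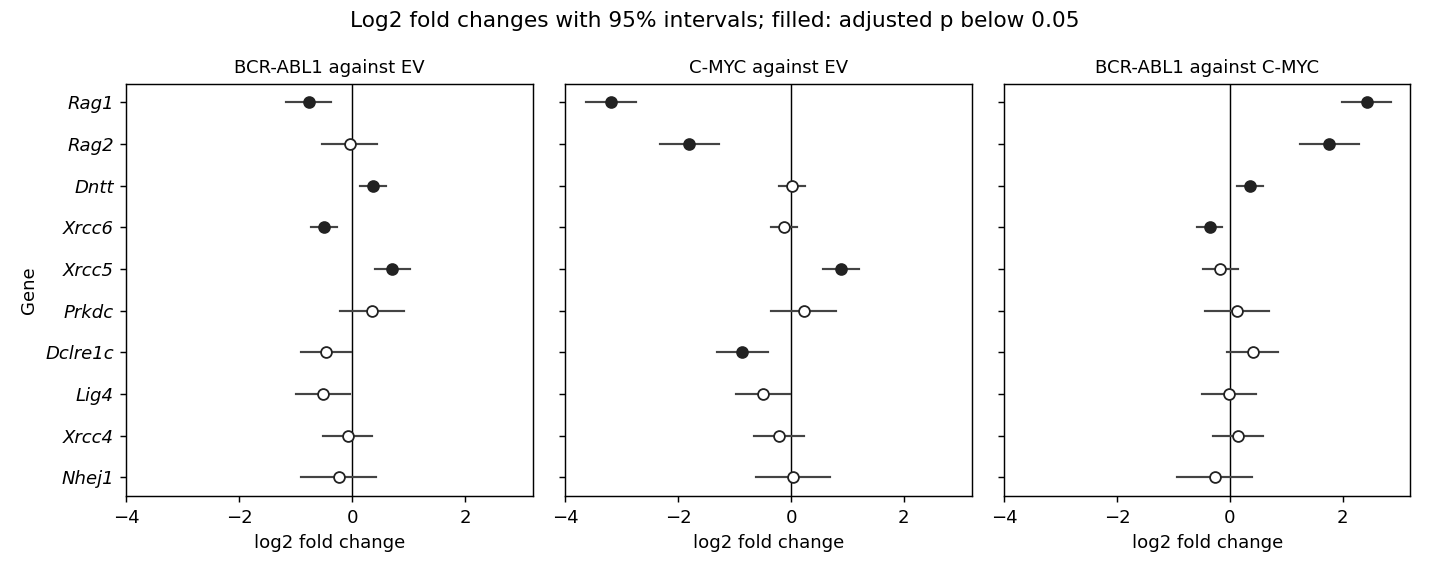
Log2 fold changes of the 10 genes in the 3 comparisons with 95% intervals; filled points had an adjusted p below 0.05. The intervals of Rag1 and Rag2 lie far below 0 in C-MYC against EV, whereas the ligation complex is called in none of the comparisons.

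The level of the members was compared per length. By the FPKM of the authors, which divide by transcript length, Dntt was highest in every condition, at 142 ± 16.5 in EV, 183 ± 12.4 in BCR-ABL1 cells and 132 ± 4.31 in C-MYC (SD, n = 2). The Ku genes and Lig4 followed, with Xrcc6 at 54.3 ± 2.87, Xrcc5 at 26.0 ± 3.36 and Lig4 at 19.8 ± 6.06 FPKM in EV. Rag1 was the fifth in EV at 8.68 ± 1.01 FPKM and the eighth in C-MYC at 0.876 ± 0.223 FPKM. Nhej1 was last in every condition, at 0.529 to 0.635 FPKM on average. Some neighbors in this order could not be separated: the libraries of Xrcc5 and Lig4, of Rag1 and Dclre1c, and of Dclre1c and Prkdc overlapped in EV. In BCR-ABL1, Rag1 overlapped with Dclre1c and Dclre1c with Xrcc4. In C-MYC, Xrcc6 overlapped with Xrcc5, Xrcc4 with Dclre1c, Rag1 with Rag2, and Rag2 with Nhej1.

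The order depended in part on the length used. Counts divided by FPKM gave an implied length that was 0.373 times the annotated exon length for Prkdc and 3.37 times for Nhej1. With CPM per kilobase of annotated exon, Dntt remained the first and Lig4 the fourth in every condition. Xrcc5 exceeded Xrcc6 in BCR-ABL1 by FPKM (40.8 ± 0.284 against 36.8 ± 1.26) but not by CPM per kilobase (22.9 ± 0.0854 against 48.9 ± 1.03), so the order of the Ku subunits was not settled by these files. Rag2 was the ninth by FPKM and the sixth by CPM per kilobase in both EV and BCR-ABL1.

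**Figure D5:**
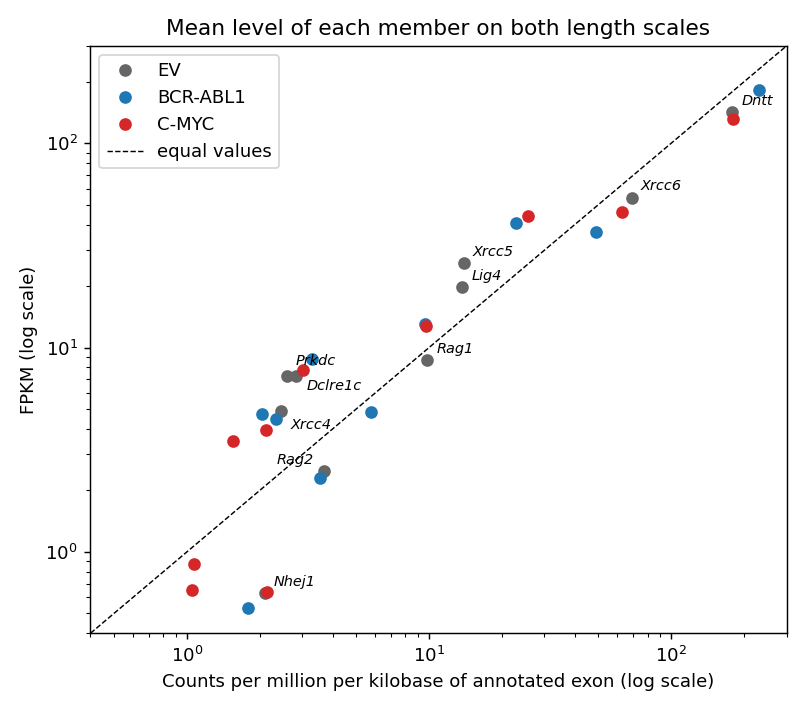
Mean FPKM against mean CPM per kilobase of annotated exon (both log scales) for the 10 genes; each point is the mean of 2 libraries of a condition, labels stand at the EV points, and the dashed line marks equal values. Dntt and Xrcc6 are high on both scales, Prkdc lies above the line and Nhej1 below it.

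Among the accessory factors of end joining, Polm had by far the largest difference from EV in both oncogene conditions. Polm, which encodes polymerase mu, a relative of Dntt that fills gaps at broken ends, had 19.6 and 21.5 CPM in EV, 5.40 and 4.61 CPM in BCR-ABL1 cells, and 2.53 and 2.16 CPM in C-MYC. The 3 conditions did not overlap. Polm fell 4.10-fold in BCR-ABL1 (log2 fold change -2.04 ± 0.20, adjusted p = 0.000990) and 8.75-fold in C-MYC (-3.13 ± 0.22, adjusted p = 0.000177) relative to EV, and was 2.13-fold higher in BCR-ABL1 than in C-MYC (adjusted p = 0.0113). The falls of Polm from EV were called under all 14 alternatives, while its difference between the oncogenes was lost without BCR-ABL1 replicate 1 (adjusted p = 0.104), without C-MYC replicate 2 (adjusted p = 0.0809) and under limma. The summed levels of the myeloid and T cell markers described above were also lower in both conditions than in EV. Their part in the fall of Polm was not tested. Of the 9 accessory genes tested, Polm was the only one called in BCR-ABL1 against EV, beside 17.0% of all genes tested. With the replicate block 2 of the 9 were called, beside 25.2% of all genes. The calls also changed when EV replicate 1 was left out. In C-MYC against EV, Tdp1, which removes topoisomerase adducts, was higher (log2 fold change 0.44), a call that was kept only without EV replicate 2 when a library was left out.

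Alternative end joining joins ends without Ku, and its activity was not measured here. In C-MYC relative to EV, the median log2 fold change of the 11 genes listed for it was 0.41. Of these genes, 7 rose and 0 fell there, beside 18.6% of all genes called higher. They included the poly(ADP-ribose) polymerase Parp1 (0.71), the break-binding complex members Mre11a (0.66) and Nbn (0.51), and DNA ligase III (Lig3, 0.64). In BCR-ABL1 against EV, 0 of 11 were called by edgeR's quasi-likelihood test, with 0 at an unadjusted p below 0.05 and 0 called by DESeq2. The calls there changed when EV replicate 1 was left out, a fit with a single EV library. Parp1 and Lig3 were lower in BCR-ABL1 than in C-MYC, and 0 of 11 were called without either library of BCR-ABL1 or of C-MYC. With the replicate block, 4 of 11 were called between the oncogenes, beside 33.5% of all genes tested. Without the block, 23.4% of all genes were called there. The count of 7 in C-MYC fell to 2 on FPKM values with limma, to 4 without either BCR-ABL1 library, to 2 without C-MYC replicate 1 and to 3 without C-MYC replicate 2.

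Of 15 published regulators of Rag transcription, 10 fell and 0 rose in C-MYC relative to EV, where 24.5% of all genes were called lower, with a median log2 fold change of -0.77. The largest falls were those of Bach2 (-1.31), Gfi1b (-1.26), Foxo1 (-0.96) and Ikzf3 (-0.91). Bach2, Foxo1 and Ikzf3 encode transcription factors of B cell development, and Gfi1b encodes a repressor of Rag transcription. In BCR-ABL1 against EV, Gfi1b (-1.19) and Irf8 (-0.95) fell and 13 of 15 were not called, where 12.0% of all genes were called lower. Both calls were lost without either BCR-ABL1 library. With the replicate block 5 of 15 were called, beside 25.2% of all genes in either direction. Foxo1, Ebf1, Ccnd3, Runx1 and Tcf12 were higher in BCR-ABL1 than in C-MYC (Foxo1 log2 difference 1.00, Ebf1 0.88). These were 5 of 15, beside 11.9% of all genes called higher. Fewer of the 15 were called when any single library of either condition was left out. With the replicate block 8 of 15 were called, beside 33.5% of all genes in either direction. The count of 10 in C-MYC against EV fell to 6 under limma with no filter and to 4 without C-MYC replicate 2. Of the 9 B precursor markers, 8 were lower in C-MYC than in EV (5 without C-MYC replicate 2) and 2 were lower in BCR-ABL1 than in EV.

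Of the RAG cofactors and neighbors of the Rag locus, the DNA-bending proteins Hmgb1 and Hmgb2 and B230118H07Rik were not called in any comparison. Traf6, a signaling adaptor gene near the Rag locus, fell in C-MYC relative to EV (log2 fold change -0.50, adjusted p = 0.00860) and was higher in BCR-ABL1 than in C-MYC (0.54, adjusted p = 0.0124). Both calls of Traf6 were lost without C-MYC replicate 2 (adjusted p = 0.0693 and 0.0957), and that between the oncogenes also without either BCR-ABL1 library (adjusted p = 0.138 and 0.0643). The products of the surrogate light chain genes Vpreb1 and Igll1 pair with the immunoglobulin heavy chain once its V(D)J joining has succeeded. Of these genes, Vpreb1 fell in C-MYC relative to EV (-0.80), and both were higher in BCR-ABL1 than in C-MYC. Vpreb3, kept in the same list, fell in C-MYC relative to EV (-1.14) and was higher in BCR-ABL1 than in C-MYC. Stage markers differed as well. Of the 4 pro-B stage markers, 3 were called lower and 0 higher in BCR-ABL1 relative to EV, and likewise in C-MYC. The remaining marker, Flt3, went the other way in BCR-ABL1, above EV, and lay below EV in C-MYC, with neither difference called. Flt3 was 6.13-fold higher in BCR-ABL1 than in C-MYC (log2 difference 2.62, adjusted p = 0.00873 by edgeR). Kit fell 6.27-fold in BCR-ABL1 cells and 3.46-fold in C-MYC. Il7r, the IL-7 receptor gene, fell 3.52-fold and 3.05-fold, and Spn fell 1.29-fold and 1.63-fold. Of the 6 markers of small pre-B and later B cells tested, 1 rose (Cd2, 3.32-fold) and 3 fell (Cd40, Cd22 and Il2ra, by 9.31-fold, 2.59-fold and 1.86-fold) in BCR-ABL1 relative to EV. In C-MYC relative to EV, 5 of the 6 fell, Cd2 among them by 8.98-fold, and 0 rose. Of all genes tested, 12.0% were called lower and 5.08% higher in BCR-ABL1 than in EV. In C-MYC, these shares were 24.5% and 18.6%.

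The genes whose log2 CPM over the 6 libraries was most like that of Rag1 were Tnfaip8l2 (Pearson r = 0.9991), Tmtc1 and Ccndbp1, and 504 genes had r above 0.95. The closest to Rag2 were Tecpr1 (r = 0.9997), 1500004A13Rik and Itgal, with 425 genes above 0.95. For Dntt they were Dyrk4 (r = 0.9969), Eya2 and Slc38a2, with 62 genes above 0.95. These libraries form 3 pairs, so the values rest largely on 3 condition means and are a description only.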

How the data were processed

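Poly(A) RNA libraries from 6 cultures were analysed; the γH2AX ChIP-seq tracks were not used here. The authors deposited unnormalized whole-number counts per gene symbol, made from reads aligned to GRCm38/mm10, and FPKM values. The submitters' processing notes name STAR 2.5.0 and StringTie 1.3.0; the counting program and its strand setting are not given in the sources used here. Both deposited tables hold 0 columns of other samples. Overlapping genes are therefore uncertain.

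Counts were filtered with filterByExpr, which left 12786 genes, scaled by TMM and tested with edgeR 4.0.16 (R 4.3.3) in 1 quasi-likelihood model of all 6 libraries without a covariate, with Benjamini-Hochberg adjustment. Standard errors are the absolute log2 fold change divided by the square root of F. The common biological coefficient of variation was 0.151, and over all genes the spread between replicates exceeded counting noise. For members with few counts, such as Nhej1 with 44 to 60 per library, depth limits precision as well. The test was run on simulated counts with changes planted in C-MYC alone. That run does not measure how well the smaller changes called here are found. Alternatives used DESeq2 1.42.0, limma 3.58.1 on log2(FPKM + 1) or log2(FPKM + 0.1), other filters and scaling, a replicate term, and single libraries left out. Positions are from GENCODE M21, and promoter sequences from RefSeq, which listed 9 of the 10 members. Symbols of the lists were matched through older symbols where needed; Paxx and most receptor constant region genes were unmatched.

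The members and lists were chosen with earlier results of these data known. All members are named. From the other lists, at most 4 called genes with the largest change are named per comparison. For Rag1, Rag2 and Dntt the 3 genes of highest correlation are named, and Myc and 53BP1 were kept as checks of the labels. Tcf12, Hmgb1, Hmgb2, Ptcra, Lck and the genes overlapping members are named outside this rule. Some genes of the lists are not reported here.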

Additional observations from a re-analysis of the deposited data

Results flagged for a closer look

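Both oncogenes were compared with the same EV libraries. By the direct test, 4 of the 10 members differed between the oncogenes, beside 23.4% of all genes tested. On the log2 scale, BCR-ABL1 minus C-MYC was 2.42 for Rag1, 1.76 for Rag2, 0.36 for Dntt and -0.36 for Xrcc6 (edgeR, adjusted p = 0.000521, 0.00258, 0.0390 and 0.0338). Rag1 and Rag2 were higher in both BCR-ABL1 libraries than in both C-MYC libraries, as was Dntt, and Xrcc6 was lower. The calls of Dntt and Xrcc6 were lost under several of the alternatives, as described above. With 2 libraries in a group, single outlying libraries were not tested for. Transcripts of the gene for 53BP1, Trp53bp1, the deleted gene, were present in every library, at mean levels of 23.6 CPM (EV), 21.7 CPM (BCR-ABL1) and 17.0 CPM (C-MYC), so the level of Trp53bp1 does not check the shared deletion.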

How the results depend on the processing

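Each comparison was repeated under 14 alternatives, of which 6 left out a library. Of the member results, 115 of 138 kept their direction and their side of the threshold between BCR-ABL1 and EV, 128 of 138 between C-MYC and EV, and 120 of 138 between BCR-ABL1 and C-MYC. For the results that did not, the cause was not tested. With a library left out of a condition, its remaining library was assumed to vary like those of the other conditions. Between BCR-ABL1 and EV, members called higher numbered 1 under the 3 limma settings and with only 4 libraries in the model, and 0 to 2 with a library left out. Members called lower there numbered 1 under limma with a pseudocount of 0.1 or with no filter, and 0 to 3 with a library left out. All genes called there were 1055, 1043 and 1425 under limma (pseudocount 1, pseudocount 0.1 and no filter) in place of 2180, and 665 to 2729 with a library left out. Between C-MYC and EV, all genes called were 3329 to 6077 with a library left out. Between BCR-ABL1 and C-MYC, members called lower numbered 0 under limma and 0 to 1 with a library left out. All genes called there were 1412 under limma with no filter, 4538 with 4 libraries in the model and 618 to 4519 with a library left out, in place of 2991.

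Log2 fold changes near 0 turned their sign. Under limma, Dntt in C-MYC against EV was -0.095 (pseudocount 1, with or without the filter) and -0.095 (pseudocount 0.1), and Lig4 in BCR-ABL1 against C-MYC was 0.032 (pseudocount 1, with or without the filter) and 0.034 (pseudocount 0.1). With a library left out, the log2 fold change in BCR-ABL1 against EV lay between -0.20 and 0.13 for Rag2 and between -0.20 and 0.071 for Xrcc4. In C-MYC against EV it lay between -0.080 and 0.12 for Dntt, between -0.058 and 0.13 for Nhej1 and between -0.21 and 0.56 for Prkdc. In BCR-ABL1 against C-MYC it lay between -0.15 and 0.11 for Lig4 and between -0.21 and 0.56 for Prkdc. limma's filter on FPKM left out Nhej1.

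With the replicate number as a block, Lig4 was called lower than in EV both in BCR-ABL1 (log2 fold change -0.50) and in C-MYC (-0.48), and no other member's call changed. Over all genes more were called with the block: 3224 in place of 2180 between BCR-ABL1 and EV, and 6631 in place of 5515 between C-MYC and EV. Between the oncogenes 4278 were called in place of 2991. Deviations of libraries with the same number correlated at 0.20 to 0.27 across genes. The labels do not say that a number marks a shared experiment, so whether the numbers pair the libraries was not settled.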
